A study of Homo sapiens with 42 samples.

Results

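The messenger RNAs of Polycomb repressive complex 2 (PRC2) were followed in the human multiple myeloma cell line RPMI-8226 while BMI1, a protein of the other main Polycomb complex, was depleted. The subunits examined were EZH1, EZH2, EED, SUZ12 and RBBP4 of the core and JARID2, AEBP2, PHF1, PHF19 and MTF2 of the accessory set, 10 of the 21357 gene symbols in the array annotation. Every probe set annotated to one of them was taken, which gave 33 of the 54675 probe sets on the Affymetrix U133 Plus 2 array. Of these, 30 passed the filter on dim signals and were tested among 35235 probe sets, and every one of the 10 genes kept at least 1. The 3 that did not pass were EZH1 211310_at, SUZ12 1566190_at and AEBP2 235184_at.

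Cells had been stably infected with a doxycycline-inducible short hairpin RNA (shRNA) directed at BMI1 or with an inducible control shRNA. The 14 groups held 3 arrays each. The BMI1-shRNA line was sampled at 24, 32 and 48 h with 100 ng/ml doxycycline, which switches the hairpin on, and at the same times without it. The control-shRNA line was sampled in the same 6 conditions, and each line also had a 0 h group. The 0 h arrays of the control line were undosed. Those of the BMI1-shRNA line carry conflicting doxycycline and line labels, so they were compared with another group only for 24 h against 0 h in that line. They also entered the estimate of the spread that all tests share and the correlations across group means. Each line is a single infected derivative, so hairpin and line cannot be told apart in undosed cells. The labels number the replicates without saying that they came from separate cultures, and p-values therefore measure only the spread between these arrays, which may be technical.

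PRC2 methylates lysine 27 of histone H3, a mark of silenced chromatin. EZH2 and its paralog EZH1 carry the catalytic SET domain, EED reads the methyl mark and stimulates the enzyme, SUZ12 is the scaffold that joins the lobes, and RBBP4 is a histone-binding WD-repeat protein shared with other chromatin complexes. JARID2 with AEBP2 defines one form of the complex, and the Polycomb-like proteins PHF1, MTF2 and PHF19 define the alternative form. BMI1 belongs to PRC1, which can bind the PRC2 mark through its CBX subunits.

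The knockdown was visible at the BMI1 probe set, 202265_at, whose annotation also includes the COMMD3-BMI1 readthrough. Its signal averaged 207 ± 34.1, 167 ± 17.3 and 159 ± 25.6 in dosed BMI1-shRNA cells at 24, 32 and 48 h, against 927 ± 154, 977 ± 62.5 and 1021 ± 125 in undosed cells of that line (SD, n = 3 each). All 8 plasma cell markers passed the filter, with median signals of 354 (CD38) to 4738 (MZB1). Of the T cell markers, CD3D and CD3G did not pass the filter, at medians of 5.5 and 3.6, whereas CD3E and CD2 passed it at medians of 16.35 and 11.95. Of the monocyte markers, CD14 and LYZ did not pass, at medians of 2.7 and 3.6, and CSF1R passed at a median of 24.3 (range 10.4 to 42.1). The epithelial markers EPCAM and KRT18 were bright throughout, at medians of 3285 and 1917. The other epithelial markers were lower, CDH1 at a median of 181 (range 24.6 to 450.6) and KRT8 at 43.25.

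The start regions of SUZ12, JARID2 and RBBP4 are shown because these are the genes with a probe set that changed on doxycycline. Each run is the 200 bases before the RefSeq gene start on GRCh38.p14, plus strand: SUZ12 at chr17:31936807-31937006, JARID2 at chr6:15245869-15246068 and RBBP4 at chr1:32651008-32651207. Capitals mark the CCAAT box on either strand and the E2F-type octamers TTTCCCGC, TTTCGCGC, TTTGCCGC and TTTGGCGC.
SUZ12: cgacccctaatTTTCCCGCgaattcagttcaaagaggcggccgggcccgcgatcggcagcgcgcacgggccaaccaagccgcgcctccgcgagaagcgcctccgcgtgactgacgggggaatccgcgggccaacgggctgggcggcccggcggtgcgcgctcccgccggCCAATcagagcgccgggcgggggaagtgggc
JARID2: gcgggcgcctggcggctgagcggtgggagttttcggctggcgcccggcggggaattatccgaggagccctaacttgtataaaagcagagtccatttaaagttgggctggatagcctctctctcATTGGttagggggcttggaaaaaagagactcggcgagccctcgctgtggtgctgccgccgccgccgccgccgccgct
RBBP4: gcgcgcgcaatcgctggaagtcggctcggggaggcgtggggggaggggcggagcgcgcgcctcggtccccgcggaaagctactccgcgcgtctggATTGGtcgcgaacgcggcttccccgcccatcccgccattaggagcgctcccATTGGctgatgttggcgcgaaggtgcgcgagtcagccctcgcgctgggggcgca
SUZ12 holds a CCAAT box that begins 31 bases before the start and an octamer 189 bases before it. JARID2 holds 1 CCAAT box, on the minus strand, and RBBP4 holds 2, both on the minus strand. Both motifs were counted on both strands in windows of 300 bases, 250 before and 50 after the start. Of the 7 subunit genes with a listed promoter at the gene start (EZH1, EZH2, EED, SUZ12, JARID2, MTF2 and RBBP4), 5 held CCAAT and 4 an E2F-type octamer. The shares among all 35116 listed promoters of that length, at a gene start or not, were 34.6% and 3.3%. AEBP2, PHF1 and PHF19 have listed promoters, but none at the gene start, and were left out. The subunit counts and these shares thus come from unlike sets, and their difference was not tested. A match is a match of letters and does not show binding.

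The first comparison asked whether PRC2 transcripts move when BMI1 is depleted, by setting the 9 dosed arrays of the BMI1-shRNA line against its 9 undosed arrays. Most subunits moved little. JARID2 was higher by 1.16-fold at one probe set, RBBP4 was lower by 1.10- to 1.12-fold at 3 of its 6 tested probe sets, and SUZ12 was lower by 1.09-fold at its brightest. With limma and Benjamini-Hochberg adjustment over all probe sets, 5 of the 30 tested member probe sets passed an adjusted p of 0.05, 1 upward and 4 downward. That is 16.7% of them, beside 5.83% of all tested probe sets, with 2.44% called upward and 3.39% downward. The share counts probe sets, not genes, and 3 of the 4 downward calls read RBBP4. The median log2 change over the 30 was 0.00, beside 0.03 over all probe sets. Fold changes are on the log2(signal + 5.4) scale, which understates changes of dim probe sets.

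The catalytic and methyl-binding subunits were not called. EZH2 203358_s_at read 1081, 1023 and 1089 in dosed cells at 24 h, 1000.2, 1042 and 1068 at 32 h, and 1118, 1073 and 1059 at 48 h. Undosed cells read 987, 997 and 935 at 24 h, 1024, 996 and 1078 at 32 h, and 1027, 1028 and 1013 at 48 h. Dosed and undosed arrays were apart at 24 and 48 h and interleaved at 32 h. The log2 difference over the 3 times was 0.07 ± 0.03 (SE; adjusted p = 0.146). EZH1, the paralog that predominates in many non-dividing cells, had 4 tested probe sets with differences of -0.06 to 0.02, none called. EED 209572_s_at, the bright EED probe set, ranged from 1161 to 1413 with a median of 1295 in dosed cells and from 1182 to 1378 with a median of 1299 in undosed cells, a difference of 0.00 ± 0.04. The second EED probe set, 210656_at, was dim at 5 to 22.2 in dosed cells and 1.9 to 15.7 in undosed cells.

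The SUZ12 probe sets did not give one answer. At 212287_at, dosed cells read 1608, 1550.2 and 1821 at 24 h, 1691, 1622 and 1685 at 32 h, and 1581, 1787 and 1757 at 48 h. Undosed cells read 1961, 1873 and 1828 at 24 h, 1869, 1811 and 1786 at 32 h, and 1710.4, 1790.2 and 1864 at 48 h. Every dosed array lay below every undosed one at 24 and 32 h, and at 48 h the ranges overlapped. The signal fell by 0.13 on the log2 scale (SE 0.04; adjusted p = 0.0238).

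The call on SUZ12 212287_at is close to the threshold. It was lost when any one of 7 of the 18 arrays was left out: undosed 24 h replicate 1, 32 h replicate 1 and 48 h replicate 3, and dosed 24 h replicates 1 and 2, 32 h replicate 2 and 48 h replicate 1. The log2 differences without these ran from -0.12 to -0.11 (adjusted p = 0.0521 to 0.0764). Fitting only the groups compared also ended the call (adjusted p = 0.0567).

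Probe set 213971_s_at, annotated jointly to SUZ12 and the pseudogene SUZ12P1, had a median of 574 in dosed cells (range 544 to 634) and 581 in undosed cells (range 565 to 673). Its difference of -0.06 ± 0.05 had the sign of 212287_at but was not called (adjusted p = 0.617). Probe set 1566191_at ran the other way. It read 46.6, 37.3 and 49.8 in dosed cells at 24 h, 45.4, 27.3 and 33.5 at 32 h, and 118, 62.2 and 41.4 at 48 h, against 26.8, 26.2 and 31.6, then 32.9, 43.4 and 27.3, then 22.5, 48.5 and 28.9 in undosed cells. The groups were apart at 24 h only, and 1 dosed array at 48 h held the highest value. The log2 difference of 0.52 ± 0.18 was not called (adjusted p = 0.0811). A remaining probe set, 1566190_at, stayed at 7.9 to 25.5 in dosed cells and 4.6 to 14.8 in undosed cells and was not tested. The deposited table does not give the position of each probe set on the transcript, and the difference between the SUZ12 probe sets was not tested.

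**Figure D1:**
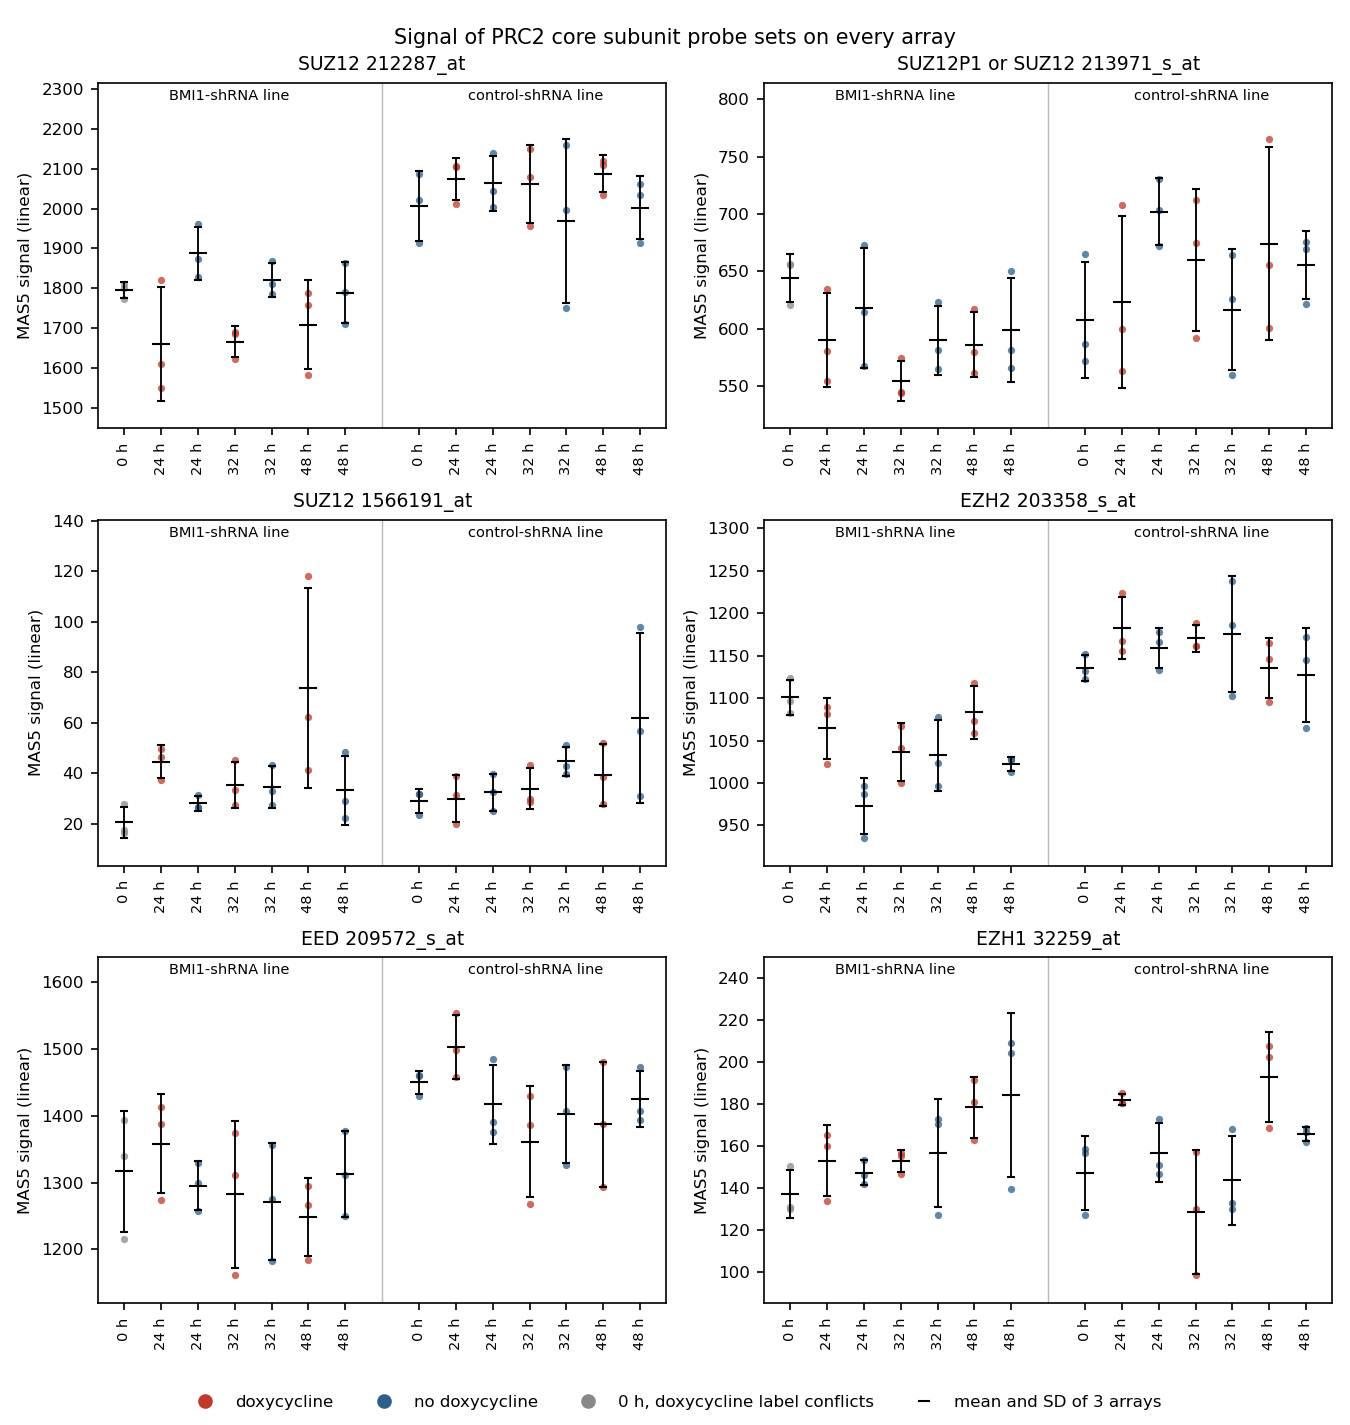
MAS5 signal (linear scale, y axes not starting at 0) of 6 core-subunit probe sets on every array by time, with the BMI1-shRNA line on the left of each panel and the control-shRNA line on the right, dosed arrays in red, undosed in blue and the conflictingly labelled 0 h arrays in grey, and bars for mean and SD of 3 arrays. SUZ12 212287_at lies lower in dosed than in undosed BMI1-shRNA cells at 24 and 32 h, whereas 1566191_at reaches its highest value, 118, on a dosed array at 48 h.

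RBBP4 gave the most calls. At 225396_at, dosed cells read 398, 379.6 and 421 at 24 h, 409.6, 423 and 434 at 32 h, and 429.6, 415 and 408 at 48 h. Undosed cells read 451, 441 and 420.4 at 24 h, 474, 474 and 487 at 32 h, and 511, 468 and 446 at 48 h. The dosed arrays were below all undosed arrays at 32 and 48 h and touched them at 24 h. The signal fell by 0.16 on the log2 scale (SE 0.04; adjusted p = 0.0107). At 210371_s_at the median was 3640.1 in dosed cells (range 3202 to 3987) and 4016 in undosed cells (range 3640.4 to 4237), a fall by 0.14 on the log2 scale (adjusted p = 0.00614). At 217301_x_at it was 3362 (2951 to 3487) in dosed cells and 3614 (3439 to 4207) in undosed cells, a fall by 0.17 (adjusted p = 0.00224). The dosed mean was the lower one at each of 24, 32 and 48 h for all 3 probe sets, and ranges over the 9 arrays overlapped for each. The other tested RBBP4 probe sets, 237333_at, 239071_at and 244872_at, had differences of -0.05 ± 0.06, 0.18 ± 0.12 and 0.00 ± 0.11, none called. The suffixes _s and _x in these names mark probe sets whose probes may match several transcripts, and a part of such signal may belong to related sequences. The same limit holds for _s probe sets of other subunits, among them JARID2 203298_s_at, EZH2 203358_s_at and EED 209572_s_at.

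JARID2, a substoichiometric subunit that recruits PRC2 and stimulates it, was the only member called upward in this comparison. At 203298_s_at, dosed cells read 495, 574 and 498 at 24 h, 565, 653 and 548 at 32 h, and 634, 572 and 519.6 at 48 h. Undosed cells read 465, 462 and 483 at 24 h, 435, 468 and 459 at 32 h, and 553, 487 and 517 at 48 h. The dosed arrays were above all undosed ones at 24 and 32 h and overlapped them at 48 h. The log2 difference over the 3 times was 0.22 ± 0.04 (SE; adjusted p = 0.000482). A second JARID2 probe set, 203297_s_at, was scattered, at 308 to 605 (median 491) in dosed cells and 376 to 516 (median 441) in undosed cells. Its difference of 0.05 ± 0.10 was not called (adjusted p = 0.874). The third, 240674_at, was dim at 15.8 to 34.8 in dosed cells and 13.8 to 31.2 in undosed cells, with a difference of -0.01 ± 0.13.

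AEBP2, the zinc finger partner of JARID2 in the same form of the complex, had a median of 527 (range 499 to 618) in dosed cells and 567 (499 to 616) in undosed cells at 225889_at, a difference of -0.04 ± 0.04. None of the Polycomb-like probe sets was called. PHF1 40446_at read a median of 294 (236 to 306) in dosed cells and 255 (232 to 326) in undosed cells, a difference of 0.12 ± 0.06 (adjusted p = 0.334). PHF19 225533_at read 191 (173 to 239) in dosed cells and 175 (150.2 to 208) in undosed cells, a difference of 0.15 ± 0.06 (adjusted p = 0.175). The brightest PHF19 probe set, 227212_s_at, leaned the other way at -0.07 ± 0.05, and 227211_at gave -0.01 ± 0.04. The 5 MTF2 probe sets lay between -0.02 and 0.07. The 25 members not called spanned -0.07 to 0.52. A total of 8 of the 30 had an unadjusted p under 0.05.

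**Figure D2:**
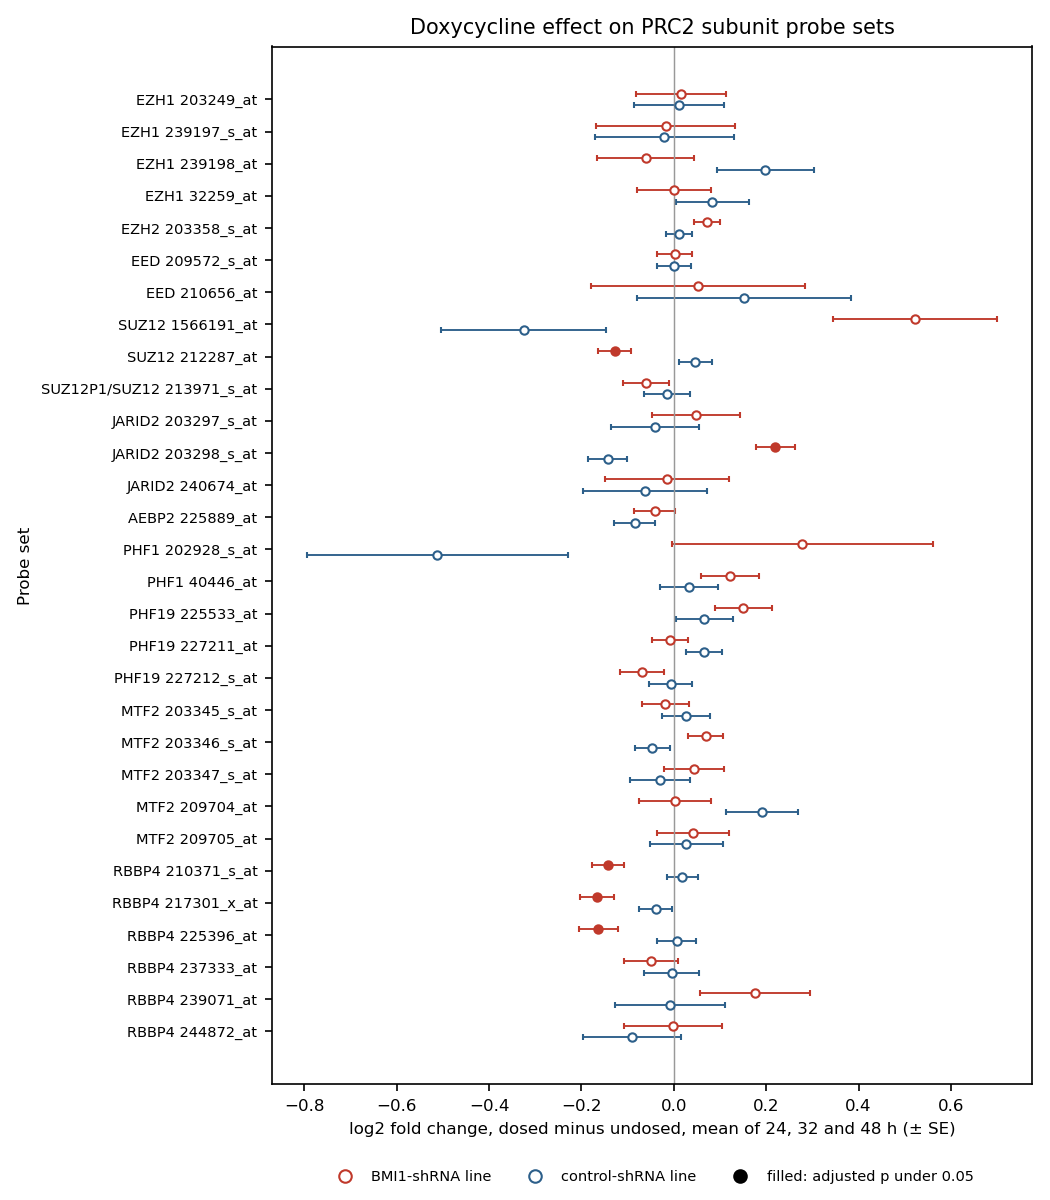
Log2 change with doxycycline (dosed minus undosed, mean of 24, 32 and 48 h, bars ± SE) for the 30 tested probe sets, with the BMI1-shRNA line in red and the control-shRNA line in blue; filled points passed an adjusted p of 0.05. The 5 filled points, all red, are JARID2 203298_s_at at 0.22, SUZ12 212287_at at -0.13 and RBBP4 at -0.14, -0.17 and -0.16.

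Other features moved with doxycycline in this line. Among plasma cell marker probe sets, 7 of 14 tested rose and none fell, among them CD38 by 0.24 and IRF4 by 0.15 on the log2 scale. That is 50%, beside 2.44% of all tested probe sets called upward. In the control line 1 of the 14 rose on doxycycline, or 7.14% beside 0.071% of all tested probe sets called in either direction. For the doxycycline effect minus that in the control line, 1 of the 14 was called, upward, or 7.14% beside 0.772% of all called upward. The median of the 14 was 0.02. Of 5 epithelial marker probe sets 1 fell, that of KRT18, by 0.19, or 20% beside 3.39% of all called downward. The summed signal of the 8 plasma cell markers was 12575 to 15478 in dosed cells and 12946 to 14125 in undosed cells. Their part in the subunit changes was not tested. The GAPDH 3' to 5' signal ratio, a measure of RNA integrity, was 0.883 to 0.975 in dosed and 0.906 to 0.973 in undosed cells. Fewer cells with a transcript and less of it per cell cannot be told apart in such bulk RNA.

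Taken at single times, few members were called. At 24 h, 0 of 30 passed with limma, beside 0.897% of all probe sets, and 4 had an unadjusted p under 0.05. At 32 h, JARID2 203298_s_at was the only one, higher by 0.37 ± 0.07 or 1.29-fold (adjusted p = 0.00233), beside 1.38% of all probe sets called and 0.247% called upward. Leaving out dosed 32 h replicate 2, the highest of its group at 653, reduced this difference to 0.29 (adjusted p = 0.0621), and fitting only the 2 groups gave an adjusted p of 0.102. At 48 h, 0 of 30 passed, beside 3.83% of all probe sets, although 5 had an unadjusted p under 0.05. The smallest adjusted p was 0.072, for SUZ12 1566191_at, followed by 0.0816 and 0.0855 for RBBP4 210371_s_at and 217301_x_at. At 48 h the call on RBBP4 210371_s_at depended on single arrays: it passed without undosed 48 h replicate 3 or dosed 48 h replicate 2. SUZ12 1566191_at passed without undosed 48 h replicate 2 or dosed 48 h replicate 3. JARID2 203298_s_at differed by 0.15, 0.37 and 0.14 at 24, 32 and 48 h, and SUZ12 212287_at by -0.19, -0.13 and -0.07. The 3 falls of RBBP4 225396_at were -0.13, -0.18 and -0.18.

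Doxycycline alone was examined in the control-shRNA line, where 9 dosed arrays were set against 9 undosed ones. No subunit probe set was called with limma, beside 0.071% of all tested, and 2 of 30 had an unadjusted p under 0.05. The smallest adjusted p was 0.524, at JARID2 203298_s_at. There the dosed arrays had a median of 650.0 (range 614 to 756) and the undosed arrays 715 (657 to 815), a difference of -0.14 ± 0.04, opposite in sign to the BMI1-shRNA line. The differences in the control line were 0.00, -0.13 and -0.30 at 24, 32 and 48 h. SUZ12 212287_at differed by 0.05 ± 0.04, SUZ12 1566191_at by -0.33 ± 0.18, and RBBP4 225396_at, 210371_s_at and 217301_x_at by 0.01 ± 0.04, 0.02 ± 0.03 and -0.04 ± 0.04. EZH2 and EED differed by 0.01 ± 0.03 and 0.00 ± 0.04.

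Whether doxycycline acted differently in the BMI1-shRNA line than in the control line was tested directly as the difference of both effects. JARID2 203298_s_at was the single member called, at 0.36 ± 0.06 (adjusted p = 9.73e-05), beside 2.53% of all tested probe sets called and 0.772% called upward. The 2 effects have opposite signs, 0.22 in the BMI1-shRNA line and -0.14 in the control line. The SUZ12 and RBBP4 calls of the BMI1-shRNA line did not pass this test. SUZ12 212287_at gave -0.17 ± 0.05 (adjusted p = 0.057), RBBP4 210371_s_at -0.16 ± 0.05 (0.0684 adjusted), RBBP4 225396_at -0.17 ± 0.06 (0.145 adjusted) and RBBP4 217301_x_at -0.13 ± 0.05 (0.252 adjusted). SUZ12 1566191_at gave 0.85 ± 0.25 (adjusted p = 0.0637). A total of 7 members had an unadjusted p under 0.05. Leaving out 1 of 14 single arrays raised the count from 1 to 2 or 3 by adding a SUZ12 probe set, RBBP4 210371_s_at or both, and JARID2 was called each time. These arrays were, in dosed BMI1-shRNA cells, 24 h replicates 2 and 3, 32 h replicate 1 and 48 h replicates 2 and 3, and in undosed ones all 3 at 48 h. In the control line they were dosed 24 h replicate 2, 32 h replicate 3 and 48 h replicates 2 and 3, and undosed 32 h replicate 3 and 48 h replicate 1.

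**Figure D3:**
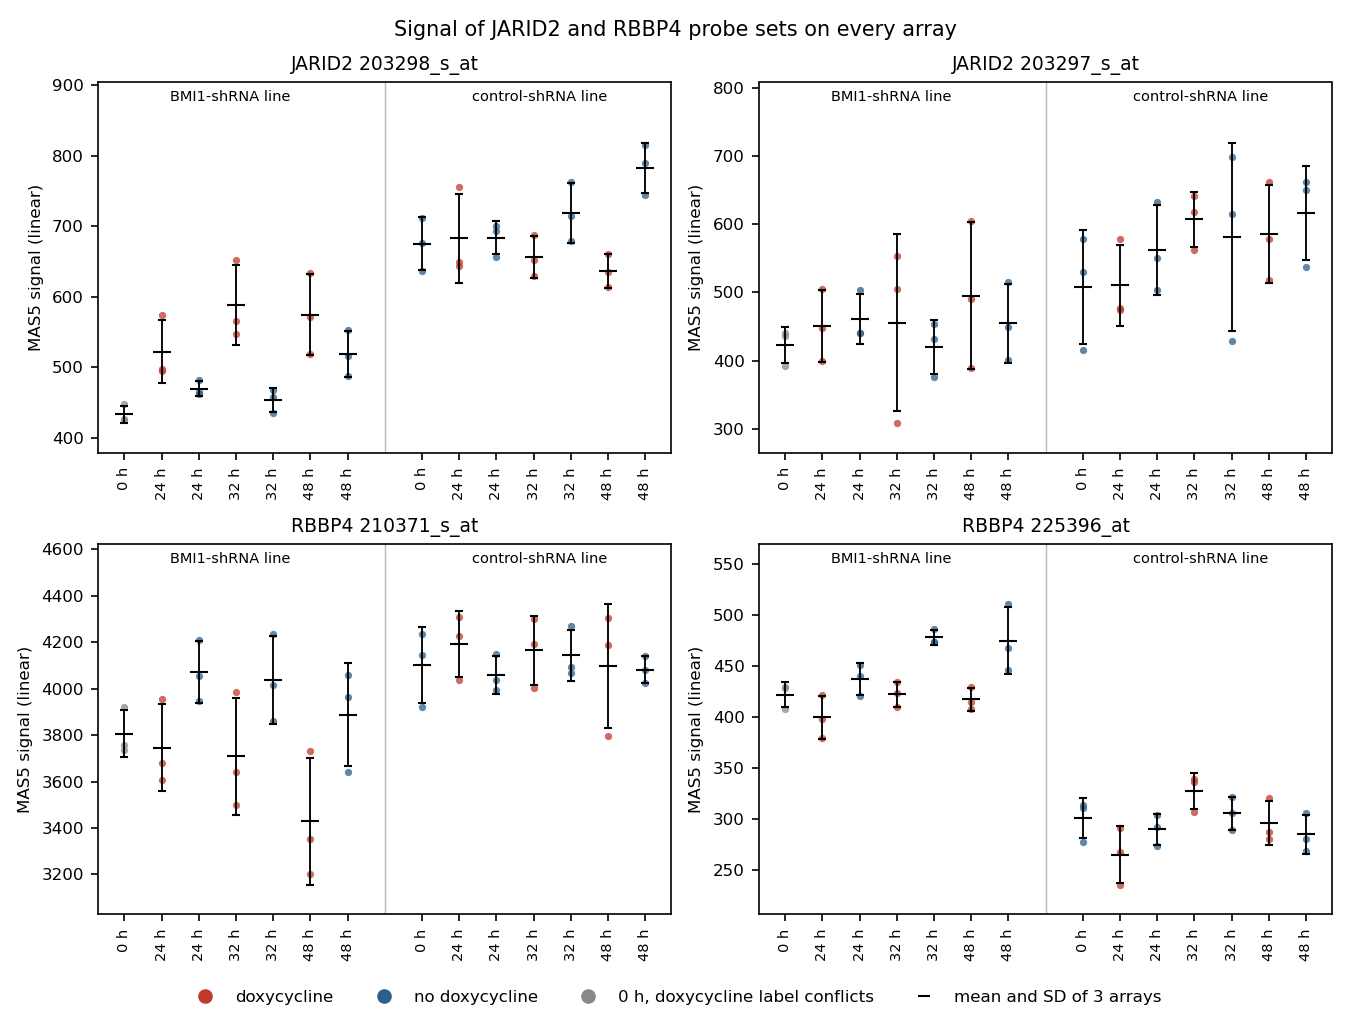
MAS5 signal (linear scale, y axes not starting at 0) of 2 JARID2 and 2 RBBP4 probe sets on every array by time, BMI1-shRNA line on the left and control-shRNA line on the right of each panel, dosed arrays in red, undosed in blue, 0 h arrays with conflicting labels in grey, and bars for mean and SD of 3 arrays. JARID2 203298_s_at is higher in dosed than in undosed BMI1-shRNA cells, where the 32 h means are 589 and 454, and RBBP4 225396_at is higher in every BMI1-shRNA array than in every control-shRNA array.

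The largest called differences among the subunits lay between the undosed lines. Part of the JARID2 and PHF19 probe sets were lower in the BMI1-shRNA line, and AEBP2 and part of the RBBP4 probe sets were higher. EZH2, EED and SUZ12 were lower by 1.09- to 1.14-fold at their called probe sets. Over 9 undosed arrays of each line, 12 of 30 members were called, 4 higher and 8 lower in the BMI1-shRNA line. This share of 40% stands beside 35.1% of all tested probe sets, 17% higher and 18.1% lower, so the subunits were called about as often as probe sets in general. BMI1 itself was lower in the undosed BMI1-shRNA line, by 0.32 on the log2 scale.

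The bright EZH2, EED and SUZ12 probe sets were lower in the BMI1-shRNA line by small amounts. EZH2 203358_s_at ranged from 935 to 1078 (median 1013) in the BMI1-shRNA line and from 1065 to 1238 (median 1166) in the control line, a difference of -0.19 ± 0.03 (adjusted p = 5.2e-07). EED 209572_s_at ranged from 1182 to 1378 (median 1299) against 1326 to 1485 (median 1408) in the control line, a difference of -0.13 ± 0.04 (adjusted p = 0.00588). SUZ12 212287_at ranged from 1710.4 to 1961 (median 1828) against 1750.0 to 2161 (median 2034) in the control line, a difference of -0.13 ± 0.04 (adjusted p = 0.003). The ranges of the lines overlapped for each of the 3. The joint SUZ12P1 and SUZ12 probe set gave -0.13 ± 0.05 (adjusted p = 0.0477), and this call held without only 6 of the 18 arrays, namely replicate 3 at 24 h, replicate 2 at 32 h and replicate 3 at 48 h of the BMI1-shRNA line and replicate 3 at 24 h, replicate 1 at 32 h and replicate 1 at 48 h of the control line. Without any other array its adjusted p was 0.0665 to 0.117. The dim SUZ12 probe set 1566191_at was also lower, by a larger but less precise -0.41 ± 0.18, and was not called (adjusted p = 0.0731). The 4 tested EZH1 probe sets lay between -0.16 and 0.09 and none was called.

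Some probe sets of accessory subunits differed by larger amounts. JARID2 203298_s_at ranged from 435 to 553 (median 468) in the BMI1-shRNA line and from 657 to 815 (median 715) in the control line, with no overlap. The difference was -0.59 ± 0.04, or 1.51-fold (adjusted p = 1.67e-14). JARID2 203297_s_at was also lower, by 1.30-fold, with overlapping ranges of 376 to 516 and 429 to 699 (adjusted p = 0.00132). PHF19 225533_at ranged from 150.2 to 208 in the BMI1-shRNA line and from 222 to 297 in the control line, again with no overlap, a difference of -0.49 ± 0.06 (adjusted p = 2.08e-08). A smaller PHF19 difference at 227211_at, -0.11 ± 0.04 (adjusted p = 0.0288), was lost without any one of 7 arrays, namely 24 h replicate 3, 32 h replicate 2 and 48 h replicate 1 of the BMI1-shRNA line and 24 h replicate 2, 32 h replicate 1 and 48 h replicates 1 and 3 of the control line (adjusted p = 0.0544 to 0.0966). The brightest PHF19 probe set, 227212_s_at, gave -0.11 ± 0.05 and was not called (adjusted p = 0.0746). Its mean signal over all arrays was 1980, beside 221 at 225533_at, so the large PHF19 difference was seen only at the dimmest probe set. AEBP2 225889_at went the other way, at 499 to 616 (median 567) in the BMI1-shRNA line and 404 to 494 (median 464) in the control line, with no overlap and a difference of 0.28 ± 0.04 (adjusted p = 1.32e-06). None of the PHF1 and MTF2 probe sets was called, and their brightest ones, 40446_at and 203345_s_at, gave 0.00 ± 0.06 and 0.06 ± 0.05.

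RBBP4 probe sets split between the lines. At 225396_at the BMI1-shRNA line read 420.4 to 511 (median 468) and the control line 269 to 322 (median 292), a difference of 0.65 ± 0.04 or 1.57-fold (adjusted p = 5.6e-16). At 237333_at it read 851 to 1097 (median 955) against 505 to 743 (median 620.1) in the control line, a difference of 0.62 ± 0.06 (adjusted p = 2.62e-11). Neither pair of ranges overlapped. At 244872_at the difference was 0.46 ± 0.11 (adjusted p = 0.000582), with ranges of 356 to 695 and 224 to 466. The brightest RBBP4 probe sets, 210371_s_at and 217301_x_at, differed by only -0.04 ± 0.03 and 0.00 ± 0.04. On doxycycline in the BMI1-shRNA line, by contrast, 225396_at, 210371_s_at and 217301_x_at were all lower in dosed cells. The GAPDH 3' to 5' ratio also differed between the lines, at 0.906 to 0.973 in undosed BMI1-shRNA cells and 0.948 to 1.07 in undosed control cells, and marker lists moved with the lines as well. Of the B cell marker probe sets, 4 of 6 tested were higher in the BMI1-shRNA line. All 4 read 1 dim gene, MS4A1, whose brightest probe set had a median of 54.9 over all arrays. The summed signal of the B cell list was 126.6 to 197.9 in undosed BMI1-shRNA cells and 56.9 to 102.3 in undosed control cells. Of the epithelial marker probe sets, 4 of 5 were higher, those of CDH1, EPCAM and KRT18, with sums of 5516 to 6482 in undosed BMI1-shRNA cells and 4011 to 5182 in undosed control cells. Of the plasma cell marker probe sets, 4 of 14 were higher and 5 lower, with sums of 12946 to 14125 in undosed BMI1-shRNA cells and 12682 to 15445 in undosed control cells. Of the fibroblast marker probe sets, 1 of 7 was higher, that of COL1A1, and no T cell, monocyte or erythroid marker probe set was called. Beside 35.1% of all tested probe sets, the called shares were 66.7% of B cell, 80% of epithelial, 64.3% of plasma cell and 14.3% of fibroblast marker probe sets. Their part in the line differences was not tested.

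**Figure D4:**
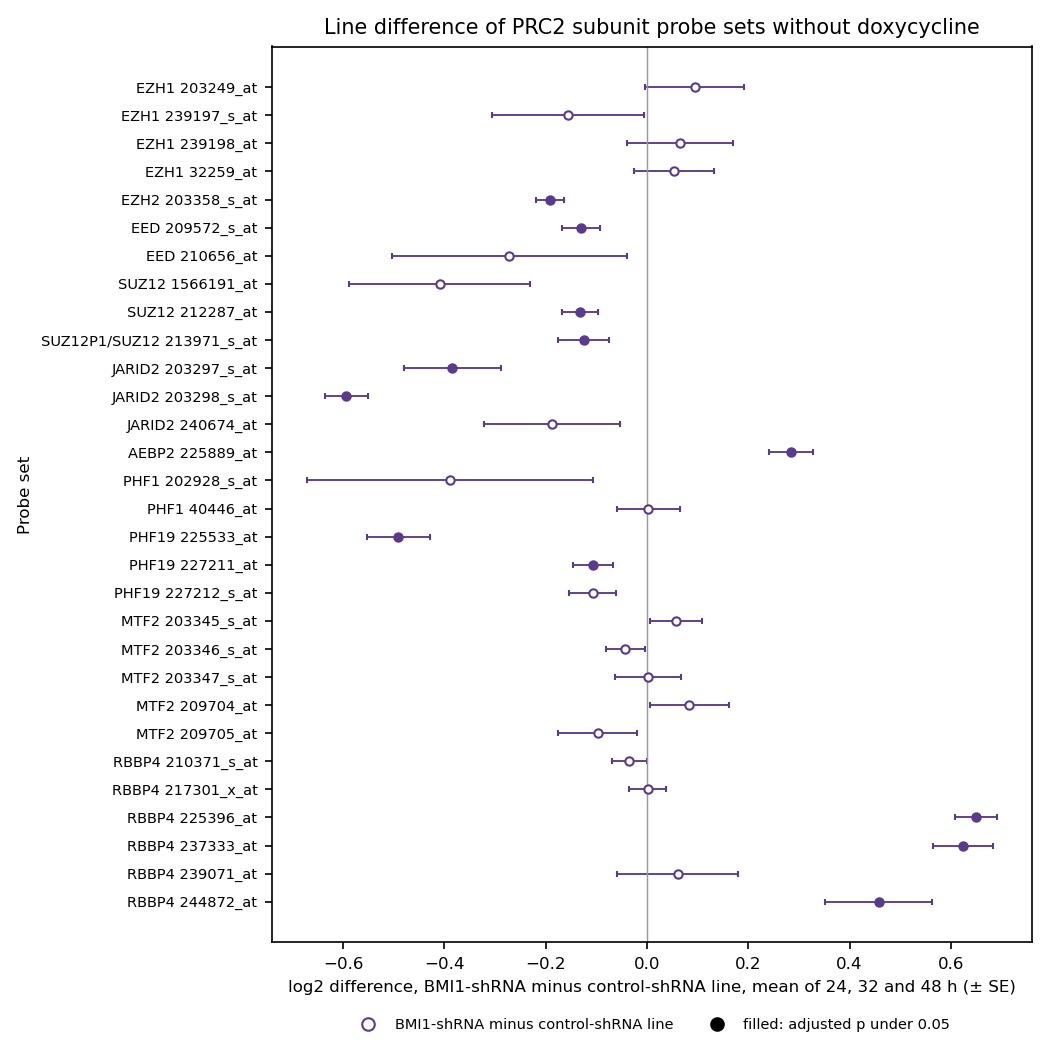
Log2 difference between the lines without doxycycline (BMI1-shRNA minus control-shRNA, mean of 24, 32 and 48 h, bars ± SE) for the 30 tested probe sets; filled points passed an adjusted p of 0.05. RBBP4 225396_at lies farthest to the right at 0.65 and JARID2 203298_s_at farthest to the left at -0.59, with 4 filled points above 0 and 8 below.

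Time in culture without doxycycline gave no called subunit in either line. At 24 h against 0 h, 0 of 30 passed with limma in the BMI1-shRNA line, beside 0.735% of all probe sets, and 0 of 30 in the control line, beside 0.925%, with 5 and 4 unadjusted p-values under 0.05. EZH2 came closest, in the BMI1-shRNA line, where it read 987, 997 and 935 at 24 h and 1123, 1097 and 1083 at 0 h, a difference of -0.18 ± 0.05 (adjusted p = 0.07). Those 0 h arrays are the ones with conflicting labels. In the control line EZH2 averaged 1159 ± 23.4 at 24 h and 1136 ± 15.2 at 0 h (SD, n = 3 each). At 48 h against 24 h, 0 of 30 passed in the BMI1-shRNA line, beside 0.596% of all probe sets, and 0 of 30 in the control line, beside 0.358%, with 6 and 5 unadjusted p-values under 0.05. PHF19 227211_at was among those in both lines, with differences of -0.19 and -0.18.

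Genes around the complex were read from lists chosen with earlier results of these data known. The other PRC2 subunits RBBP7, EPOP, SKIDA1, EZHIP, LCOR and LCORL had 8 tested probe sets from 5 genes, and EZHIP, an inhibitor of PRC2 at a median of 1.9, was too dim to test. None was called on doxycycline in either line. Between the undosed lines 3 were lower in the BMI1-shRNA line: EPOP, an elongin-binding accessory subunit, by 0.14 on the log2 scale, and LCOR by 0.26 and 0.27. That is 37.5% of the 8, beside 35.1% of all tested probe sets. These calls were lost without 2, 4 and 2 of the 18 arrays in turn, with adjusted p-values of up to 0.0571, 0.0927 and 0.0651. Of the demethylases that remove the PRC2 mark, KDM6A was too dim to test at all 4 probe sets and KDM6B had 4 tested probe sets, none called.

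The methyltransferases NSD1, NSD2, NSD3 and SETD2 write methylation at lysine 36 of the same histone, a mark that hinders PRC2. Of their 19 tested probe sets, 2 rose and 1 fell on doxycycline in the BMI1-shRNA line, or 15.8% beside 5.83% of all tested probe sets. NSD3 moved both ways, as 238496_at rose by 0.48 ± 0.11 (adjusted p = 0.00463) and 225318_at fell by 0.35 on the log2 scale (SE 0.07; adjusted p = 0.00157). At 238496_at the dosed cells had a median of 130.1 (range 99.4 to 171) and the undosed cells 88.8 (66.7 to 127), and at 225318_at the medians were 286 (215 to 337) and 327 (306 to 433). The fall at 225318_at also differed from the control line by the direct test, at -0.41 ± 0.11 (adjusted p = 0.0213). NSD2, which the translocation t(4;14) activates in part of myelomas, rose at 209053_s_at by 0.14 ± 0.04 (adjusted p = 0.0464), a call lost without any one of 13 of the 18 arrays (adjusted p of up to 0.144). Between the undosed lines 8 of the 19 probe sets were lower in the BMI1-shRNA line, all of NSD1 or NSD2, and 5 were higher, all of NSD3. That is 68.4% of the 19, beside 35.1% of all tested probe sets. Of these calls, NSD1 225654_at was lost without any one of 13 of the 18 arrays, NSD3 238496_at without any one of 10 and NSD3 218173_s_at without any one of 3, with adjusted p-values of up to 0.119, 0.139 and 0.0637.

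Of 26 textbook PRC2 targets, developmental regulators that PRC2 keeps silent in many cell types together with CDKN2A, 14 genes had a tested probe set. None of their 19 tested probe sets was called on doxycycline in either line, and their median log2 change in the BMI1-shRNA line was 0.01, beside 0.03 over all probe sets. Between the undosed lines 5 of the 19 were higher and 1 lower in the BMI1-shRNA line, a share of 31.6% that lies below the 35.1% of all tested probe sets. HOXB7 was higher at 3 probe sets, and at 204779_s_at it read 213 to 290.1 (median 234) in the BMI1-shRNA line and 18.5 to 44.3 (median 29.8) in the control line. CDKN2A, an INK4 locus gene encoding a cell cycle inhibitor, was higher by 0.48 and 0.40 on the log2 scale at 207039_at and 209644_x_at. LHX2 206140_at was lower. LHX2 was dim, at 1.6 to 15.5 in the BMI1-shRNA line and 12.2 to 26.5 in the control line, and its log2 difference of -1.25 ran from -1.89 with a pseudocount of 1 to -0.66 with a pseudocount of 18.8. All its undosed BMI1-shRNA values lay below the lowest array median of 16, so other arrays carried it through the filter. Its call is counted in the 31.6%, and no conclusion is drawn from it.

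Across the 14 group means, the probe sets of other genes most like EZH2 203358_s_at were those of MTPAP, TMCO1 and NUP153, with Pearson correlations of 0.966, 0.957 and 0.955. For EED 209572_s_at they were MORC2, ING2 and UBE2B at 0.958, 0.945 and 0.943, and for SUZ12 212287_at QKI, KLF9 and FXR1 at 0.983, 0.976 and 0.971. These are the highest of all tested probe sets with a single gene symbol, and they share the arrays and the difference between the lines.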

How the data were processed

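RNA of 42 samples was hybridised to 1 Affymetrix U133 Plus 2 array each. The deposited values are linear signal intensities per probe set, made by the authors with MAS5, per the submitters' processing notes, which give no version. With 2% trimmed from both ends, array means lay between 150.02 and 150.03, which shows scaling to one target. Arrays have no read depth, and 3 per group limits the precision.

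After removal of 62 control probe sets, those with at least 3 arrays at or above the array median (16 to 22.5) were tested. Values were transformed as log2(signal + 5.4), 5.4 being the 25th percentile. limma 3.58.1 in R 4.3.3 fitted the 14 group means to all 42 arrays (28 residual degrees of freedom, intensity trend), and 11 contrasts were drawn. Tests were two-sided, with Benjamini-Hochberg adjustment over all 35235 probe sets and a threshold of 0.05. The code of the fit was run on simulated data with independent normal noise and no difference between the undosed lines. These data differ from that setting, so the run gives no error rate for them. Genes come from the platform annotation, in which 41091 probe sets have a single symbol, 1801 several and 11721 none.

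Members, lists and markers were chosen with earlier results of these data known. Named were BMI1, every called member probe set, the brightest probe set of other members, called genes of the lists, and the 3 probe sets nearest in pattern to EZH2, EED and SUZ12. The alternatives were 2 pseudocounts, quantile normalization, 2 filters, no intensity trend, replicate number as a block, only the groups compared, no BMI1-shRNA 0 h arrays, and each array left out in turn.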

Additional observations from a re-analysis of the deposited data

Results flagged for a closer look

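Among BMI1 and the 30 tested subunit probe sets, there were 2 for which the effect of doxycycline differed between the lines. That difference was tested directly, with limma over 9 dosed and 9 undosed arrays per line. BMI1 is the target of the hairpin. The other is 1 of the 30 subunit probe sets, or 3.33%, beside 2.53% of all tested probe sets called. BMI1 202265_at had a difference of -2.47 ± 0.08 on the log2 scale (adjusted p = 3.94e-23), its signal being lower on every dosed array of the BMI1-shRNA line than on every other array. JARID2 203298_s_at had a difference of 0.36 ± 0.06 (adjusted p = 9.73e-05), from 0.22 ± 0.04 in the BMI1-shRNA line and -0.14 ± 0.04 in the control line. The differences at 24, 32 and 48 h were 0.15, 0.37 and 0.14 in the BMI1-shRNA line and 0.00, -0.13 and -0.30 in the control line. The second bright JARID2 probe set, 203297_s_at, gave 0.09 ± 0.14 for the same difference and was not called.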

How the results depend on the processing

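Of the 19 called member results, 15 kept their direction and their call under every alternative and with each array left out, and 0 reversed. The 4 others were SUZ12 212287_at on doxycycline, JARID2 203298_s_at at 32 h, and PHF19 227211_at and the joint SUZ12P1 and SUZ12 probe set between the lines. The last of these was also lost with no filter (adjusted p = 0.0697), without the intensity trend (0.0706) and without the conflictingly labelled 0 h arrays (0.055), and PHF19 227211_at with only the groups compared (0.0563). Of the list genes, LCOR 226520_at between the lines lost its call with only the groups compared (0.051), and NSD2 209053_s_at on doxycycline lost it under 5 alternatives (0.053 to 0.141). Between the lines, NSD3 238496_at lost its call under 4 alternatives (0.0503 to 0.0604) and NSD1 225654_at with no filter (0.0709) and with the replicate block (0.0546). Counts moved as follows. With a filter at the 75th percentile, which tests fewer probe sets, the difference between the lines in the doxycycline effect gave 3 members in place of 1, doxycycline at 48 h gave 2 in place of 0 (RBBP4 210371_s_at and 217301_x_at), and 24 h against 0 h in the BMI1-shRNA line gave 1 in place of 0 (EZH2). With only the groups compared, doxycycline at 32 h gave 0 in place of 1 and 24 h against 0 h in the BMI1-shRNA line gave 1 (RBBP4 244872_at); fewer arrays then estimate the spread. Quantile normalization gave 2 at 48 h, the same RBBP4 probe sets. It also gave 6 in place of 5 for doxycycline over the 3 times in the BMI1-shRNA line, 2 upward and 4 downward. Between the lines it gave 13 in place of 12, 4 higher and 9 lower. Over all alternatives these 2 counts ran from 4 to 6 and from 11 to 13. Leaving out single arrays gave 1 to 3 members for the difference in the doxycycline effect, 0 to 1 at 32 h and 0 to 1 at 48 h, 4 to 6 for doxycycline over the 3 times and 10 to 12 between the lines. The samples of different groups share replicate numbers, but same-numbered arrays did not deviate together: their residuals correlated at 0.00 on average (lowest -0.24, highest 0.20, 273 pairs). With the replicate number as a block, 5 members were called on doxycycline in the BMI1-shRNA line and 12 between the lines, as without it, and no other member count changed. Dim probe sets such as SUZ12 1566191_at have the largest errors (SE 0.18 on the log2 scale, beside 0.04 for 212287_at).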
